A study of Mus musculus with 4 samples.

Results

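The 7 genes Ank2, Ank3, Sptan1, Sptbn1, Macf1, Dst and Plec encode ankyrins, spectrins and giant linkers of the cytoskeleton. Their AGO2-bound regions were taken from the deposited tables wherever the midpoint of a region lay inside 1 of these genes on the same strand of the mm10 GENCODE annotation. They comprised 467 of 46860 clusters called in the wild-type immunoprecipitate (IP), 842 of 86106 clusters called in the IP labelled FMR1 ko, and 467 of 46862 regions of a series table that sets the 2 IPs against each other. AGO2, the Argonaute protein that holds miRNAs on their target RNAs, was pulled down with the RNA crosslinked to it (eCLIP). The tissue was whole brain of C57BL/6 mice at stage P0, the day of birth, either wild type or FMR1 ko. Each genotype gave an IP and an input, which makes 4 samples. The labels do not state the knockout allele, the sex or how many brains went into a library. FMR1 encodes FMRP, an RNA-binding protein of neurons, and the study asked how FMRP bears on the access of AGO2 to miRNA sites near G-quadruplexes.

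Ankyrins are adaptor proteins that tie membrane proteins to the spectrin network under the cell membrane. Ankyrin-B (Ank2) serves axons and ankyrin-G (Ank3) organises the axon initial segment and the nodes of Ranvier, and in neurons both genes use a very long exon to make giant ankyrins. Alpha-II spectrin (Sptan1) and beta-II spectrin (Sptbn1) pair into the rods of the neuronal membrane skeleton. The spectraplakins Macf1 and Dst join actin filaments to microtubules, and plectin (Plec) joins intermediate filaments to actin and to junctions. Their mRNAs are among the longest of neurons, and several are known FMRP targets. AGO2 usually reaches an mRNA through pairing of the miRNA seed, bases 2 to 8 of the miRNA, with a short match that lies most often in the 3' UTR.

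Each genotype had 1 IP library, so no difference below has a replicate check, and a difference between the IPs is one between 2 libraries rather than between genotypes. Reads behind each score were recovered from the authors' log2 and -log10 p. Depth ratios of input to IP were 6.34 for wild type and 1.92 for the knockout-labelled pair, and that of the knockout-labelled IP to the wild-type one was 2.28. IP reads per cluster had a median of 4 in both. No recovered denominator was below 1 read, so a 1 there may stand for 0 and is written below as at most 1. Fmr1 itself carried 2 wild-type and 5 knockout-labelled clusters, none enriched. With the allele unknown these reads do not check the label, and the library is called knockout-labelled. All 5 neuronal marker genes listed for the tissue check (Tubb3, Map2, Stmn2, Dcx, Snap25) carried clusters in both libraries. So did all 6 markers of neural progenitors and radial glia, and Ttr of the choroid plexus (9 and 7 clusters). Wild-type clusters lay on 3 of 4 oligodendrocyte-lineage markers, 2 of 3 endothelial, 1 of 3 microglial and 1 of 3 erythroid ones. Knockout-labelled clusters lay on 4, 3, 2 and 1 of them. The keratinocyte markers Krt5 and Krt14 carried none in either, and of the muscle markers Myh3 carried none, Acta1 2 wild-type clusters and Ttn 9 knockout-labelled ones. In these RNA libraries, fewer cells of a type and less RNA per cell cannot be told apart.

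The seed matches in enriched peaks of these genes belonged to 4 of the 11 miRNA families searched. A cluster is called an enriched peak where the authors' -log10 p and log2 over input both reach 3. The mature miRNAs that stand for these families, from RefSeq (GRCm38.p6), carry their seeds in capitals.
miR-9-5p: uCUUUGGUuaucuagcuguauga
let-7a-5p: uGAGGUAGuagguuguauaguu
miR-125b-5p: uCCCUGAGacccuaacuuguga
miR-16-5p: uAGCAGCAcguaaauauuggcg

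The matching sites are shown because they are the places where an enriched peak of these mRNAs holds a candidate miRNA pairing. They are read 5' to 3' on the transcript strand of mm10, with the match in capitals. The first 6 lie in wild-type peaks and the last in a knockout-labelled peak.
Ank2, 3' UTR, miR-9, chr3:126923586-126923615, minus strand: gctaatttgtgACCAAAGAtagcatccttc
Ank2, coding, miR-125, chr3:126934540-126934569, minus strand: caacaagatttCTCAGGGAaaacgcaagac
Dst, coding, miR-9, chr1:34166182-34166211, plus strand: tttcaatgatgCCAAAGAagccactgatta
Macf1, coding, let-7, chr4:123434754-123434783, minus strand: ttggtgagcagTACCTCAaggatgagctga
Macf1, coding, miR-9, chr4:123512123-123512152, minus strand: atggcaagaatACCAAAGccgagtggactc
Sptbn1, coding, miR-15/16, chr11:30103337-30103366, minus strand: gatgccaagagTGCTGCTtctggcatcccc
Macf1, coding, miR-15/16, chr4:123394076-123394105, minus strand: gatgaaattgaTGCTGCTAttcagagatca
Only 1 of these 7 sites lies in a 3' UTR, but most peaks searched were coding. In wild type 22 were coding and 7 lay in 3' UTRs, and all 5 knockout-labelled ones were coding. The Ank2 miR-9 and miR-125 sites and the last Macf1 site match bases 2 to 8 of the seed and are followed by an A, which makes 8 matching letters, and the others match 7.

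AGO2 clusters on these mRNAs lay mostly in coding sequence. In wild type, 293 of 467 clusters were coding (62.7%, exact 95% interval 58.2 to 67.1), against 29.8% of all clusters of that library. In the knockout-labelled library 559 of 842 were coding (66.4%, 63.1 to 69.6), against 36.8% of all clusters. 3' UTRs held 11 wild-type clusters (2.36%) and 20 knockout-labelled ones (2.38%), where all clusters had 18.2% and 12.3%. Introns held 149 and 240, and the rest lay in 5' UTRs or in exons of transcripts with no coding part. Intervals cover counting error only, and neighbouring clusters of 1 gene are not independent. When only transcripts tagged basic were used, the coding shares were 58% and 62.9%, where the clusters no longer coding lay mostly in the giant exon of Ank3 (19 of 22 and 20 of 29), most others in the Macf1 exon of 4791 bases.

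**Figure D1:**
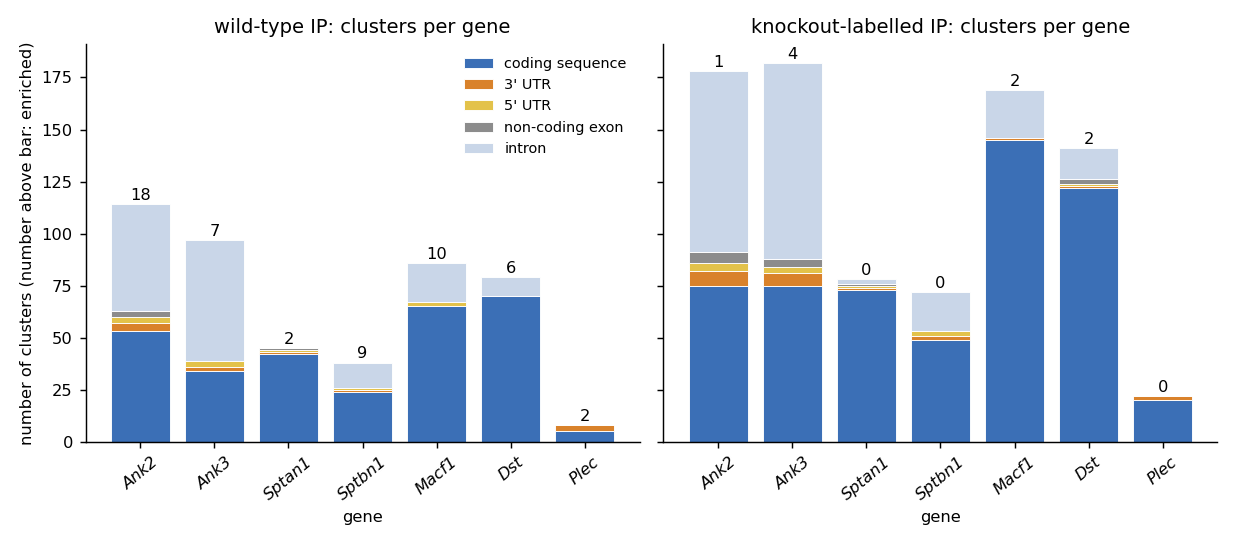
Number of AGO2 clusters (y axis) on each of the 7 genes (x axis) in the wild-type IP (left) and the knockout-labelled IP (right), stacked by kind of region, with the number of enriched peaks above each bar. Coding sequence makes up most of the bars of Sptan1, Sptbn1, Macf1, Dst and Plec, and introns a large part of Ank2 and Ank3.

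Few of these clusters stood clear of the input. In wild type 54 of 467 were enriched (11.6%, 8.81 to 14.8), where 24.1% of all clusters of that library were. In the knockout-labelled library 9 of 842 were enriched (1.07%, 0.49 to 2.02), where 3.08% of all clusters were. Against a single input read (1 read), enrichment took 5 IP reads for wild type but 9 for the knockout-labelled library. Coding clusters carried most of the shortfall in wild type: 22 of 293 were enriched (7.51%, 4.77 to 11.1), against 21.2% of all coding clusters, and their median log2 over input was 1.93 against 3.25. Among 3' UTR clusters of the 7 genes 7 of 11 were enriched (63.6%, 30.8 to 89.1), against 37.2% of all 3' UTR clusters. Among introns 24 of 149 were enriched (16.1%), against 18.4%. In the knockout-labelled library none of the 20 3' UTR clusters was enriched (interval 0 to 16.8%), against 9.01% of all 3' UTR clusters. Of the coding clusters 5 were enriched (0.894%, against 1.65% of all), and of the intronic ones 4 (1.67%, against 1.09%). Below their input lay 154 of 842 clusters (18.3%), against 8929 of all 86106.

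Ank2 (ENSMUSG00000032826.17, chromosome 3, 126921612 to 127499350, minus strand) had the most enriched peaks of the 7 genes in wild type, 18 of 114 clusters, and 1 of 178 in the knockout-labelled library. Its leading site lay in the 3' UTR of the last exon at 126923577 to 126923643, around the miR-9 match, with 25 IP against 3 input reads in wild type (log2 over input 5.72). In the knockout-labelled library the site was covered by 2 clusters, of which the one holding the match had 25 against 9 reads (2.41), below the limit. A second 3' UTR peak, at 126923408 to 126923489, had 14 against 7 reads in wild type (3.66), and the overlapping knockout-labelled cluster had 22 against 10 (2.08). The 3' UTR cluster with most IP reads, 37 at 126922659 to 126922757, had 93 input reads and was not enriched (1.33). Read depth and enrichment over input therefore picked different sites in this 3' UTR.

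The coding sequence of Ank2 held 5 wild-type peaks. The peak around the miR-125 match, in exon 42 of 46 (transcript Ank2-207) at 126934526 to 126934632, had 22 against 12 reads (3.54), and of 3 knockout-labelled clusters on it the one over the match had 23 against 8 (2.46). A peak in the giant exon was enriched in both libraries, the only exonic site of the 7 genes of which this held. It lay at 126943376 to 126943420 in wild type (13 against 3 reads, 4.78) and at 126943390 to 126943413 in the knockout-labelled library (23 against 2, 4.46). Its sequence is shown for that reason, with the bases that both clusters cover in capitals.
Ank2, giant exon, chr3:126943376-126943420, minus strand: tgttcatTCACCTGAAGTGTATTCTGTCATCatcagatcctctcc
It holds no match to the 11 seeds. The other 10 wild-type peaks of Ank2 were intronic, and 9 of them rested on 5 to 7 IP reads against 1 or 2 input reads. Among those 9 were 3 pairs of abutting clusters with equal counts, which may rest on the same reads. Counting such pairs once leaves 50 of the 54 enriched wild-type clusters of the 7 genes. The exception, at 127261959 to 127262074 in an intron of 234269 bases, had 18 against 6 (4.25), with no knockout-labelled cluster within 50 bases.

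Ank3 (ENSMUSG00000069601.14, chromosome 10, 69398773 to 70027438, plus strand) had 7 enriched peaks among 97 clusters in wild type and 4 among 182 in the knockout-labelled library. In wild type, 6 of the 7 were intronic. The exonic one lay in the 3' UTR at 70024900 to 70024981, with 18 against 4 reads (4.83). The overlapping knockout-labelled cluster had 5 against 4 (1.26). The 34 coding clusters of Ank3 gave no enriched peak in wild type. The best of them by -log10 p, in the giant exon at 69986972 to 69987096, had 31 against 27 reads (2.86) and so fell just short of the log2 limit. It holds matches to the let-7 and miR-15/16 seeds, and 2 knockout-labelled clusters overlap it, at 69986960 to 69987024 (39 against 18 reads, 2.06) and 69987025 to 69987119 (62 against 32, 1.89). The lone coding peak of the knockout-labelled library lay in an exon of 102 bases, exon 2 of 43 in transcript Ank3-233, at 69808417 to 69808503, with 14 against 3 reads (3.16). No wild-type cluster lay within 50 bases of it. An intronic site was enriched in both libraries, at 69747465 to 69747597 in wild type (10 against 2 reads, 4.99) and at 69747508 to 69747602 in the knockout-labelled library (13 against at most 1, 4.64).

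Sptan1 (ENSMUSG00000057738.13, chromosome 2, 29965560 to 30031451, plus strand) was the most densely covered of the 7 genes per length. It had 5.41 wild-type and 9.22 knockout-labelled exonic clusters per kb of exon, where the other genes had 0.453 to 3.28 and 1.25 to 4.83. Exon length here joins the exons of all annotated transcripts, some of which may be little used. All 45 wild-type clusters were exonic, and 2 of 78 knockout-labelled clusters were intronic. Only 2 clusters were enriched in wild type and none in the knockout-labelled library. The enriched ones were a 5' UTR cluster at 29965719 to 29965786 (7 against 5 reads, 3.15) and a coding cluster in the first exon of transcript Sptan1-208 at 29978377 to 29978399 (6 against 4, 3.25). Both were near the limits. The cluster with most IP reads in the knockout-labelled library, 70 at 30018391 to 30018556, had 110 input reads (0.29), and the 2 wild-type clusters there had 10 against 17 (1.90) and 16 against 44 (1.2). For this gene the reads followed the input more than for the others: the median log2 over input of exonic clusters was 1.2 for wild type and 0.40 for the knockout-labelled library, the lowest of the 7 genes in each.

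Sptbn1 (ENSMUSG00000020315.18, chromosome 11, 30099395 to 30268175, minus strand) had 9 enriched peaks among 38 wild-type clusters, and none among 72 in the knockout-labelled library. The 9 comprised 4 coding, 1 in the 3' UTR and 4 in introns. The 3' UTR peak at 30099430 to 30099481 had 9 against 2 reads (4.83), and the knockout-labelled cluster there 11 against 6 (1.81). The coding peak around the miR-15/16 match, in exon 34 of 36 at 30103306 to 30103394, had 7 against at most 1 (5.47). No knockout-labelled cluster overlapped it. The deepest wild-type cluster of the gene, in exon 33 at 30104525 to 30104653, had 22 against 21 reads (2.73), and its knockout-labelled counterpart 43 against 36 (1.2). In the 5' UTR 2 abutting knockout-labelled clusters held 44 against 11 reads (2.94) and 41 against 19 (2.05). The wild-type IP had 1 cluster there with 3 against 2 reads (3.25), so it had fewer IP reads but no lower log2 over input.

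Macf1 (ENSMUSG00000028649.18, chromosome 4, 123349633 to 123684360, minus strand) had 10 enriched peaks among 86 wild-type clusters, 7 of them coding and 3 intronic, and 2 among 169 knockout-labelled clusters, both coding. None of its wild-type clusters lay in the 3' UTR. The coding peak in exon 23 of 98 (transcript Macf1-203) at 123494922 to 123494965 had 16 against 7 reads (3.86), and the overlapping knockout-labelled cluster 12 against 12 (0.94). The peaks around the let-7 and miR-9 matches had 7 against 2 reads (4.47) and 7 against 5 (3.15). The 2 knockout-labelled peaks lay at 123432930 to 123433015 (14 against at most 1 read, 4.75) and, around the miR-15/16 match, at 123394070 to 123394116 (10 against 2, 3.26). Neither overlapped a wild-type cluster.

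Dst (ENSMUSG00000026131.18, chromosome 1, 33908225 to 34308661, plus strand) had 6 enriched peaks among 79 wild-type clusters and 2 among 141 knockout-labelled ones. Of the 6, 5 were coding. The deepest was in exon 50 of 103 (transcript Dst-211) at 34211149 to 34211235, with 16 against 12 reads (3.08), and no knockout-labelled cluster lay within 50 bases of it. Next came exon 59, at 34225771 to 34225835, with 12 against 5 reads (3.93), where the knockout-labelled cluster had 25 against 34 (0.50). In the knockout-labelled library a coding peak in exon 29, at 34169745 to 34169802, had 18 against 4 reads (3.11) and no wild-type cluster within 50 bases. The other knockout-labelled peak was intronic (log2 over input 3.40). It overlapped a wild-type cluster at 34011611 to 34011656, with 3 reads against at most 1 (4.25), which missed the limit in -log10 p (2.04). The libraries had no enriched peak of Dst in common.

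Plec (ENSMUSG00000022565.15, chromosome 15, 76170974 to 76232574, minus strand) was the least covered, with 8 wild-type and 22 knockout-labelled clusters, all exonic. None of the 8 overlapped any of the 22. Its 3' UTR held the highest log2 over input of the 7 genes in either library. That peak, at 76171860 to 76171942, had 19 wild-type IP reads against at most 1 input read (6.91). A second, at 76172033 to 76172072, had 6 against at most 1 (5.25). The knockout-labelled library had 3' UTR clusters on either side of both peaks, at 76171723 to 76171754 and 76172155 to 76172171, each with 3 reads against at most 1 (2.52), and none on them. No knockout-labelled cluster of Plec held more than 8 IP reads.

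The giant exons of the ankyrins carried many of the reads of these genes. The giant exon of Ank2 (126941610 to 126947807, 6198 bases, in 2 coding transcripts) held 19 wild-type clusters with 200 IP reads and 20 knockout-labelled clusters with 759. Per kb that was 32.3 and 122.0 IP reads, against 24.1 and 64.1 over the other exons of the gene. The giant exon of Ank3 (69986089 to 69993762, 7674 bases, in 1 coding transcript) held 19 and 20 clusters with 131 and 575 IP reads, or 17.1 and 74.9 per kb against 7.35 and 38.4. The inputs were higher there too, at 55.3 and 121.0 reads per kb for Ank2 against 34.6 and 54.5 elsewhere, and at 34.0 and 71.9 for Ank3 against 11.8 and 35.6. Each of the 2 ankyrin exons had at most 1 enriched peak in a library. For Ank2 it was 1 of 19 wild-type and 1 of 20 knockout-labelled clusters, against 7 of 41 and 0 of 66 in its other exons. The giant exon of Ank3 had none, and its other exons had 1 of 20 and 1 of 64, so few peaks lay there either.

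The long exons of Macf1 and Dst were sparse instead. In Macf1 the exon of 5361 bases had 4.66 wild-type and 15.1 knockout-labelled IP reads per kb, and another of 4791 bases had 4.38 and 4.80. The other exons of Macf1 had 13.7 and 65.3. The Dst exon of 5292 bases had 6.61 and 8.69, against 12.2 and 38.8 over its other exons. In Plec all 8 wild-type clusters lay in its 2 longest exons, of 7412 bases (6 clusters) and 3381 bases (2 clusters), whose coding parts encode the plectin repeats and the rod. These 2 Plec exons had 4.99 and 2.96 wild-type IP reads per kb, against 0 over its other exons. In the knockout-labelled library they had 4.32 and 6.21, against 2.33. Counts of reads per kb join clusters called separately in each library, which covered 894 and 1511 bases of the giant Ank2 exon in the respective libraries, with 10.5 and 42.2 IP reads per cluster. Reads of 2 knockout-labelled clusters of that exon were not recovered, nor those of 12 of 66 in the other exons of Ank2. In the other exons of Ank3, Macf1 and Dst this held for 12 of 64, 24 of 123 and 34 of 117. Knockout-labelled reads per kb of those other exons are therefore too low by an unknown amount.

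**Figure D2:**
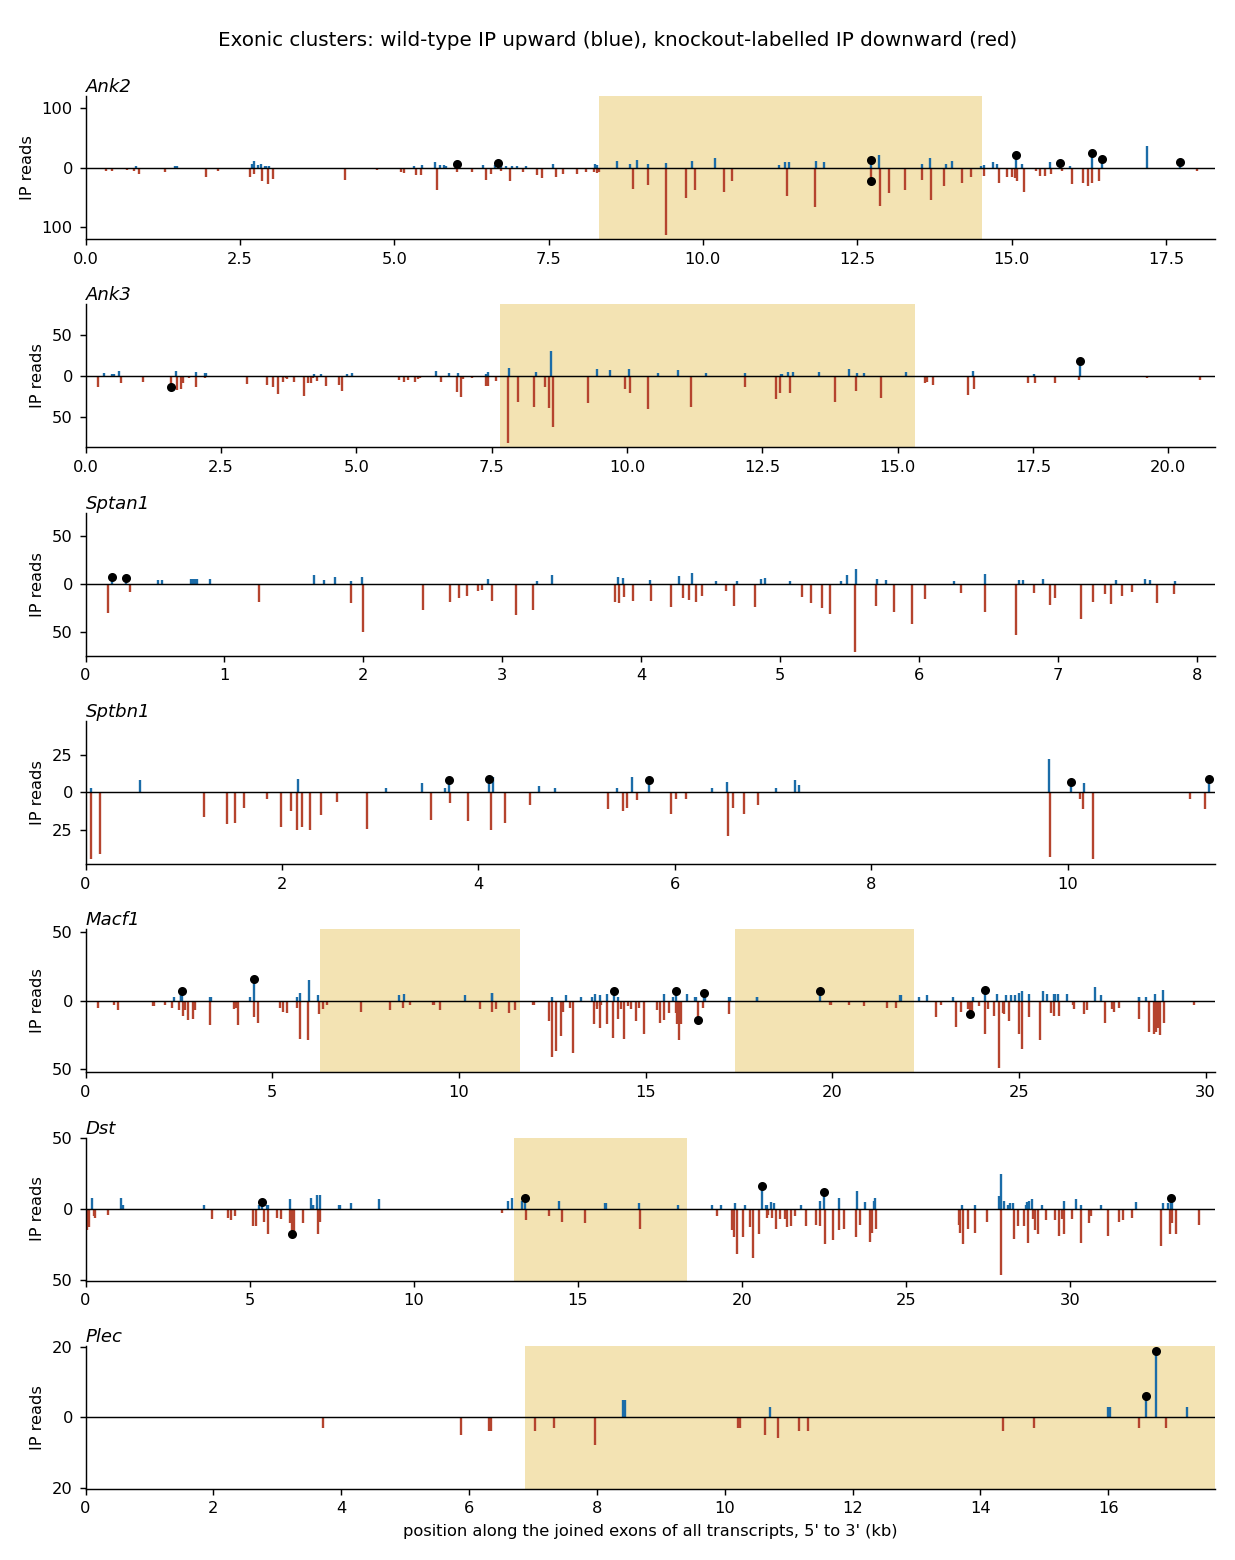
IP reads (y axis) of each exonic cluster along the joined exons of each gene from 5' to 3' in kb (x axis), with wild-type clusters upward in blue and knockout-labelled clusters downward in red, black dots on enriched peaks and exons over 3000 bases shaded. The tallest knockout-labelled lines of Ank2 and Ank3 (113 and 82 reads) stand in the shaded giant exons, the tallest wild-type line of Ank2 (37 reads) stands in the 3' UTR and that of Ank3 (31 reads) in the giant exon, while the shaded exons of Macf1 and Dst hold short lines; clusters whose reads were not recovered (13 wild-type and 172 knockout-labelled, introns included) are not drawn.

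Clusters with 20 or more IP reads numbered 9 of 454 wild-type clusters with recovered reads (1.98%, 0.91 to 3.73). Of all such clusters 2.33% reached that depth, and 1.4% of those outside miRNA genes, both inside that interval. In the knockout-labelled IP, which was 2.28 times as deep, they numbered 121 of 670 (18.1%, 15.2 to 21.2). There 3.1% of all clusters with recovered reads reached that depth, and 2.58% of those outside miRNA genes. Of the 121, 112 were coding and 31 lay in an exon over 3000 bases. The largest was in the giant exon of Ank2 at 126946622 to 126946837, with 113 IP against 148 input reads (0.55). By gene they numbered 31 on Ank2, 21 each on Ank3 and Macf1, 19 on Sptan1, 15 on Dst and 14 on Sptbn1, and none on Plec. Their median log2 over input was 1.07, from 0.09 to 4.46, and 2 of them were enriched, the shared Ank2 peak and an Ank3 intronic cluster with 26 against 5 reads (3.32). Reads were not recovered for 172 of the 842 knockout-labelled clusters, the 154 below their input among them. Deep clusters below input could therefore not be counted, and the median and the lowest value leave them out.

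Sites called in both libraries were common, but rarely enriched in both. Of the 54 wild-type peaks, 27 overlapped a knockout-labelled cluster by 1 base or more (50%, 36.1 to 63.9), against 39.6% of all wild-type peaks, and among exonic peaks 23 of 30 did (76.7%, 57.7 to 90.1), against 51.2% of all exonic peaks. On an enriched knockout-labelled peak lay 2 of 54 (3.7%, 0.452 to 12.7), against 15.1% of all wild-type peaks. Of wild-type peaks outside miRNA genes, 1208 of 10709 lay on one (11.3%), a share inside that interval. The other shares over all peaks given here include those in miRNA genes as well. In the other direction, 4 of the 9 knockout-labelled peaks overlapped a wild-type cluster (44.4%, 13.7 to 78.8), against 73.9% of all. By gene, the share of all wild-type clusters that overlapped a knockout-labelled one ran from 0 of 8 for Plec, 39 of 97 for Ank3 and 55 of 114 for Ank2 to 53 of 79 for Dst and 33 of 45 for Sptan1.

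At the 251 wild-type clusters that overlapped a knockout-labelled cluster, the median log2 over input was 1.82 for wild type, against 0.66 for the knockout-labelled library. Wild type was higher in 213 of the 251 (84.9%), and over all 11587 such clusters outside miRNA genes it was higher in 91.6%, with medians of 3.25 and 1.52. The median difference, wild type minus knockout-labelled, was 1.12 (quartiles 0.56 and 1.87), and by gene it ran from 0.88 for Ank3 and 0.92 for Sptan1 to 1.37 for Dst and 1.5 for Sptbn1. With at least 5 input reads on each side, 145 clusters gave a median difference of 0.89, with 116 higher in wild type (80%), where 2143 clusters outside miRNA genes gave 1.05 and 86.7%. Both shares on these genes lie below those over all clusters. The limit of 5 input reads needs recovered reads, which knockout-labelled clusters below their input did not have, so it leaves those out as well. Within the 145 the knockout-labelled median was 0.88 against 0.66 over the 251, and the wild-type median 1.88 against 1.82. Each value divides by its own input, and the 2 inputs differ in depth relative to their IPs. The part that the inputs have in the difference was not tested.

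**Figure D3:**
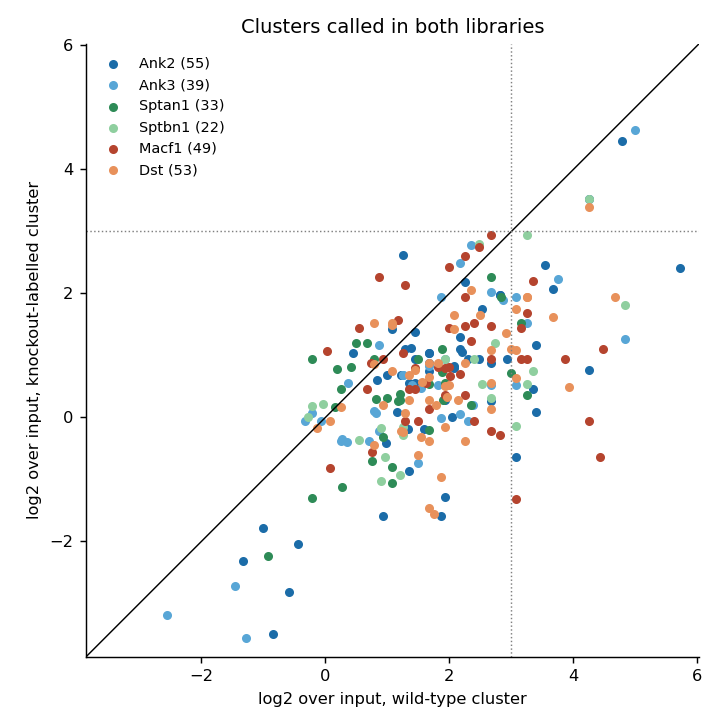
Log2 over input of each wild-type cluster (x axis) against that of the overlapping knockout-labelled cluster (y axis), for the 251 pairs on 6 genes, Plec having none. The line marks equal values and the dotted lines the limit of 3; 213 points lie below the line.

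The series table compares the IPs directly, on regions called in wild type. In it, 8 of the 467 regions of the 7 genes were higher in wild type, that is, reached 3 in -log10 p and 1 in log2 (1.71%, 0.742 to 3.35), where 3.39% of all regions were, and 3.42% of those with recovered reads when p was computed from the reads in both directions. As lower, by that p, 2 of 454 regions with recovered reads passed (0.441%, 0.0534 to 1.58), where 0.174% of all regions did. The shares over all regions include those in miRNA genes. Outside miRNA genes 1159 of 46231 regions were higher, a smaller share that lies inside the interval of the 7 genes. The deposited table gives no p for regions below 0. To be lower, a region with 3 wild-type reads needed 37 knockout-labelled reads. To be higher, 8 wild-type reads against at most 1 sufficed.

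Of the 8 higher regions 5 were intronic, 2 lay in 3' UTRs and 1 was coding. In the authors' deposited table the Plec 3' UTR peak stood at log2 3.11 from 19 wild-type against 5 knockout-labelled reads (interval 1.64 to 4.89), and the Ank3 3' UTR peak 2.77 from 18 against 6 (1.38 to 4.39). The coding region was the Dst peak in exon 50, with 3.19 in the authors' deposited table from 16 against 4 reads (1.56 to 5.23). Reads of the knockout-labelled IP were thus present at all 3 of these exonic sites, though at Plec and Dst no cluster had been called there. The intronic ones were the Ank2 site with 18 against 3 reads (3.77), a Macf1 site at 123628824 to 123628907 with 17 against 6 (2.69), an Ank3 site with 9 against at most 1 (4.36) and 2 abutting Sptbn1 regions with 10 against at most 1 each (4.51). The Sptbn1 pair may rest on the same reads, and counted once it leaves 7 higher regions.

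The 2 lower regions lay in exons, 1 in the giant exon of Ank3 and 1 in the 5' UTR of Sptbn1. The Ank3 region, at 69986190 to 69986314, had 10 wild-type against 74 knockout-labelled IP reads, for which the authors' deposited table lists a log2 of -1.70 (interval -2.82 to -0.74; -log10 p from the reads 3.47). Over their own inputs, the wild-type cluster there stood at 0.37 (10 against 49 reads) and the knockout-labelled cluster at 0.56 (82 against 107). The Sptbn1 region, at 30268096 to 30268131, had 3 against 40 IP reads, which the authors' deposited table lists at -2.55 (-4.89 to -0.90; -log10 p from the reads 3.45), where values over input were 3.25 and 2.94. Neither region was an enriched peak in either library. The coding sequences of the called regions are shown because they are the exonic places, outside UTRs, where the IPs differed past the limits. Capitals mark bases inside a knockout-labelled cluster.
Ank3, lower in wild type, giant exon, chr10:69986190-69986314, plus strand: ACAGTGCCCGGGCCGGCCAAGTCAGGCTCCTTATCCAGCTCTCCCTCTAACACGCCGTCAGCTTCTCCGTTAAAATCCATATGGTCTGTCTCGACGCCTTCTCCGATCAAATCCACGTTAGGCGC
Dst, higher in wild type, exon 50, chr1:34211149-34211235, plus strand: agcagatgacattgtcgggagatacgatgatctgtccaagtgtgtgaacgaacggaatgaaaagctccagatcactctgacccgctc
The Ank3 region is covered whole by a knockout-labelled cluster and the Dst region by none, and their GC contents are 56.8% and 49.4%.

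**Figure D4:**
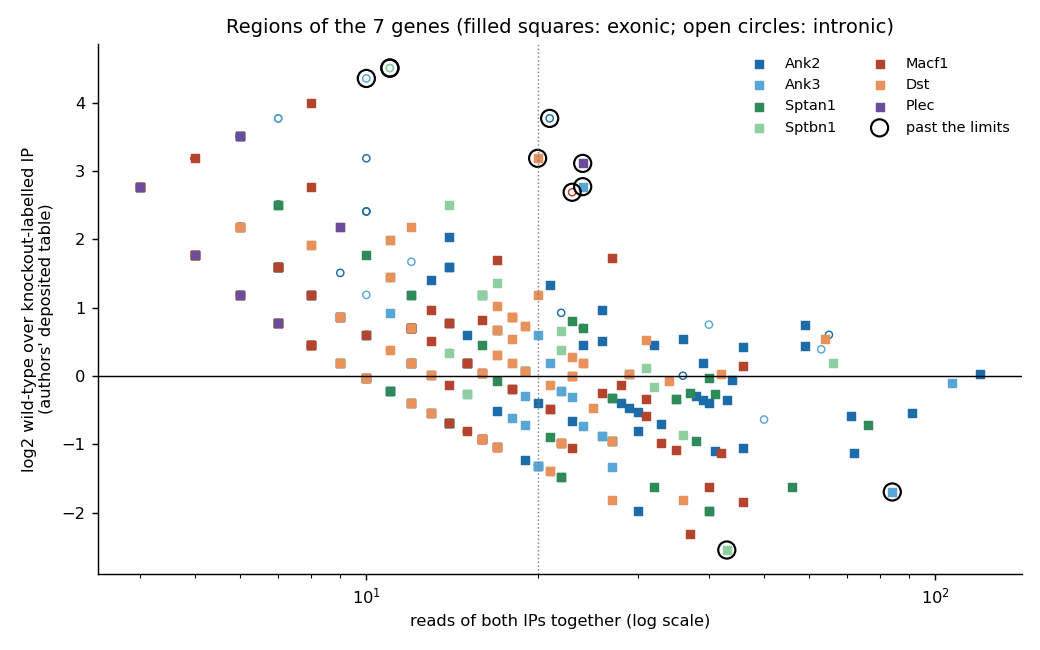
Log2 of wild-type over knockout-labelled IP in the authors' deposited table (y axis) against the reads of both IPs together (x axis, log scale) for each region of the 7 genes with recovered reads. Rings mark the 8 higher and 2 lower regions, 2 of which fall on the same point; the dotted line stands at 20 reads, to the right of which 79 of 120 regions lie below 0.

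Of 120 regions with 20 or more reads in both IPs together, 79 were below 0 (65.8%), and the authors' deposited table put their median log2 at -0.34, with quartiles of -0.98 and 0.19. Over all 3126 such regions outside miRNA genes the median was 0.38 (-0.33 and 1.05), with 35.8% below 0. The limit counts the reads of both IPs, of which the knockout-labelled one is deeper, so it partly sets the sign: 63 of the 73 regions with fewer than 10 wild-type reads passed it with a log2 below 0, against 16 of the 47 with 10 or more. The 104 coding regions had a median of -0.40 against 0.08 over 1343 coding regions, the 5 regions in 3' UTRs 0.74 against 0.77, and the 9 intronic ones 0.70 against 0.60. By gene, the medians of well-covered regions in the authors' deposited table were -0.92 for 18 regions of Sptan1, -0.54 for 18 of Macf1, -0.33 for 20 of Ank3, -0.31 for 36 of Ank2, -0.04 for 20 of Dst and 0.12 for 7 of Sptbn1. Plec had 1, its 3' UTR peak. With no limit on reads the median over the 467 was 0.77, with 28.7% below 0, and that over all regions outside miRNA genes was 2.77, with 6.28% below 0. The sign of the typical region thus turns with the limit on reads.

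Summed over all regions with recovered reads, the 7 genes had 2551 wild-type and 4610 knockout-labelled IP reads, a log2 of 0.33 after scaling by depth (0.26 to 0.40), where regions outside miRNA genes together gave 1.28. Coding regions gave -0.01 (-0.09 to 0.07; all 0.98), 3' UTRs 0.81 (0.49 to 1.13; all 1.3) and introns 1.77 (1.59 to 1.95; all 2.07). Regions were called in wild type, which favours wild-type reads in such sums. Gene by gene the sums were 0.37 for Ank2, 0.43 for Ank3, -0.25 for Sptan1, 0.60 for Sptbn1, 0.31 for Macf1, 0.36 for Dst and 2.42 for Plec. The Plec value rests on 47 against 20 reads. Over exonic regions alone, Ank2 gave -0.03 (-0.18 to 0.13), Ank3 -0.16 (-0.39 to 0.06), Macf1 0.01 (-0.18 to 0.20) and Sptbn1 0.27 (-0.02 to 0.56), intervals that include 0, while Dst gave 0.30 (0.12 to 0.48). Sptan1, with no intronic region, was the only gene below 0 under both counts (-0.47 to -0.04). Intronic regions gave 1.36 to 2.96 in the 5 genes that had them.

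**Figure D5:**
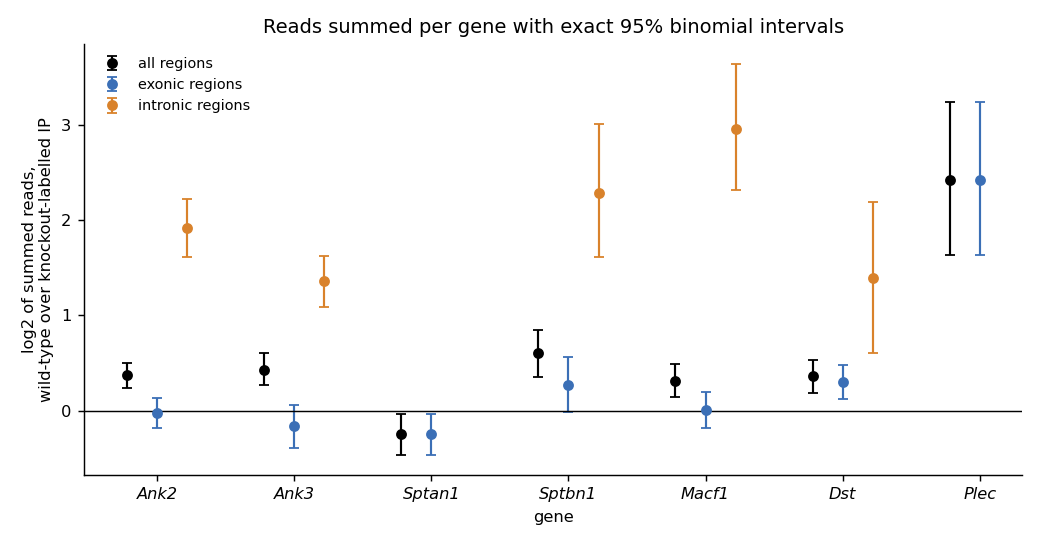
Log2 of the summed reads of wild-type over knockout-labelled IP, scaled by depth (y axis), per gene (x axis), over all, exonic or intronic regions, with exact 95% binomial intervals that cover counting error only. Exonic values of 6 genes lie between -0.25 and 0.30 and that of Plec at 2.42, and intronic values lie at 1.36 or above.

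Within the long exons of the ankyrins the sums were below 0 as well. The giant exon of Ank2 had 200 wild-type against 562 knockout-labelled reads, a log2 of -0.30 (-0.54 to -0.07), and the other exons 292 against 598, or 0.15 (-0.05 to 0.36). The giant exon of Ank3 had 131 against 380 reads, or -0.35 (-0.65 to -0.06), and its other exons 0.14 (-0.23 to 0.49). Of the long exons of the linkers, that of Dst gave 1.32 from 35 against 32 reads (0.58 to 2.06), where its other exons gave 0.23. Those of Macf1 gave 1.13 from 25 against 26 reads (0.28 to 1.98) and 2.00 from 21 against 12 (0.91 to 3.15), where its other exons gave -0.13.

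Seed matches were about as frequent in the peaks of these genes as in peaks at large. The letters sought on the transcript strand were CTACCTC or TACCTCA for let-7, ACCAAAG or CCAAAGA for miR-9, CTCAGGG or TCAGGGA for miR-125, TGCTGCT or GCTGCTA for miR-15/16, CACTGTG or ACTGTGA for miR-128, TGTTTAC or GTTTACA for miR-30, TACTTGA or ACTTGAA for miR-26, GCACTTT or CACTTTA for miR-17, TACGGGT or ACGGGTA for miR-99/100, AAGCCAT or AGCCATA for miR-135 and TTGCACT or TGCACTA for miR-130. Of 30 exonic wild-type peaks 6 held a match (20%, 7.71 to 38.6), against 23.0% of 6900 exonic peaks outside miRNA genes, whose median length was 48 bases against 63.5. Of 22 coding peaks 5 did (22.7%, 7.82 to 45.4), against 22.5% of all coding peaks. Of 7 3' UTR peaks 1 did (14.3%, 0.361 to 57.9), against 26.2% of all 3' UTR peaks. In the knockout-labelled library 1 of 5 did, against 34.6% of 1751. Matches to miR-9 were found in 3 of the 30 peaks (10%, 2.11 to 26.5), against 4.35% of the 6900. Matches to let-7, miR-125 and miR-15/16 were found in 1 each (3.33%, 0.0844 to 17.2), against 5.59%, 2.8% and 3.38%. Each of these shares over the 6900 lies inside the interval of the 7 genes. miR-124 was not searched here.

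Predicted G-quadruplexes, sought on the transcript strand as 4 guanine runs, each 3 or longer, joined by loops of 1 to 7 bases, were rare near these sites. They lay within 50 bases of 3 of 318 exonic wild-type clusters (0.943%, 0.195 to 2.73), against 2.42% of all exonic clusters, and of 3 of 602 knockout-labelled ones (0.498%, 0.103 to 1.45), against 2.35%. With runs of at least 2 guanines the shares were 23.9% and 25.6%, against 27.3% and 30.6%. The 5' UTR of Sptan1 was the only place found in both libraries. Its cluster had 7 against 5 reads in wild type (3.15) and 30 against 20 in the knockout-labelled library (1.52). The others were coding clusters of Ank3 and Macf1 in wild type and of Ank2 and Macf1 in the knockout-labelled library, none of them enriched.

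Genes that act beside these 7 were followed through a fixed list of 45: Ank1, 5 further spectrins, 12 genes of the spectrin-actin junction, 11 membrane proteins held by ankyrins, 8 other plakins and giant linkers and 8 microtubule-end partners. Of the 45, 37 had a wild-type cluster and 39 a knockout-labelled one. Together 91 of their 473 wild-type clusters were enriched (19.2%; all clusters 24.1%) and 23 of 1009 knockout-labelled ones (2.28%; all 3.08%). In the series table, higher values in wild type passed the limits at 11 of 473 regions (2.33%; all regions 3.39%), on 7 genes, and none was lower (all 0.174%). These shares lie below those over all features, which include miRNA genes. Outside miRNA genes 1159 of 46231 regions of the series table were higher, a share close to that of the list. Ankyrin-bound membrane proteins held 4 of the 11: 3 regions of the cell adhesion gene Nrcam, led by an intronic one, and an intron of the sodium channel gene Scn8a (log2 4.19, 8 against at most 1 read, in the authors' deposited table). Sptbn4, the beta-IV spectrin of the axon initial segment, had 2, led by an intronic region with 11 against 4 reads (2.65).

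The nuclear linker gene Syne2 had 2 coding regions among the 11, led by one with 10 against at most 1 read (4.51 in the authors' deposited table). Epb41l1, a protein 4.1 gene, had an intronic region with 11 against at most 1 (4.65), Dmtn, the dematin gene, a 3' UTR region with 19 against 11 (1.98), and Dmd, the dystrophin gene, an intronic region with 8 against at most 1 (4.19). Genes of the list with many enriched wild-type clusters included Tmod2, a tropomodulin that caps actin filaments (11 of 17 clusters), Slc8a1, a sodium-calcium exchanger (9 of 55), Ank1 (6 of 10), Nrcam (5 of 15) and Dmd (5 of 26). The spectrin gene Sptbn5 had no cluster in either library, and Ppl, Evpl and Eppk1, plakins of epithelia, had none either.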

How the data were processed

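Clusters of 1 wild-type and 1 knockout-labelled AGO2 IP were used as deposited. Per the labels' protocols and the submitters' processing notes, the authors trimmed reads with cutadapt 1.15, removed repeat reads, mapped to mm10 with STAR 2.6.0c, removed duplicates with UMI tools (version given as 5.2) and called clusters with CLIPper 1.4. The authors' deposited columns are a -log10 p, at most 400, and a log2 of IP over input. In the series table, whose making is not given in the sources used here, they set IP against IP. Since 46799 of its regions recur in the wild-type file, its values were read as wild type over knockout-labelled.

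Whole reads were recovered from each log2 and -log10 p (for 99.11% of regions in wild type, 87.58% in the knockout-labelled library and 99.1% in the series table). This includes 576 wild-type and 3215 series regions filled from the identical region of the other table. Where both tables gave wild-type reads (42615 regions), they were equal in 100% of cases. Regions listed at a -log10 p of 0 often gave none. Recovery and calls were tested on simulated data. The simulated scores were made with the same formula and depth ratio that recovery inverts, so this cannot tell whether the formula is the authors' own. Each region took the GENCODE vM21 annotation at its midpoint, in the order coding, 3' UTR, 5' UTR, non-coding exon, intron. Of 59255 annotated start codons 59215 read ATG in the reference. Python 3.11.15, pandas 2.3.3, scipy 1.17.1 and pysam 0.24.0 were used. Shares carry exact (Clopper-Pearson) 95% intervals.

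Members, lists and limits were chosen with earlier results of these data known. Named regions were, per member, the best exonic region by -log10 p, those past the limits of the series table, those with 20 or more IP reads, and peaks of 10 or more IP reads that stood over 50 bases from any cluster of the other library. Of 121 such deep knockout-labelled clusters the leading ones are given. Some named beyond this rule were chosen after their values were seen: further enriched peaks, the Plec flanking clusters and the clusters that overlap a named one. The input samples enter only through the authors' scores. Single results of some listed genes are not reported here.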

Additional observations from a re-analysis of the deposited data

How the results depend on the processing

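Limits and counting choices move these results as follows. At limits of 5 and 4, 16 wild-type and 3 knockout-labelled clusters were enriched, and at 2 and 2, 202 and 59. At limits of 5 and 2, 4 regions of the series table were higher and 0 lower; at the limits used, p from the reads in both directions, or centring on the median of well-covered regions, gave 8 higher, and centring 2 lower. With basic transcripts only, coding shares were 58% and 62.9%, and the wild-type intron share 37.7% against 31.9%. With regions of 10 or more reads the summed log2 was 0.05 for Ank2, -0.05 for Ank3, -0.21 for Macf1 and 0.12 for Dst, and over exonic regions -0.03 for Ank2, -0.16 for Ank3, 0.27 for Sptbn1 and 0.01 for Macf1, so Ank2, Ank3 and Macf1 change sign with the regions counted; leaving out introns or thinly covered regions is what those settings do. With runs of 2 guanines, G-quadruplex shares were 23.9% and 25.6%. The other 56 alternative values moved by less than their counting interval, or by less than 1.5 times for counts. Counting abutting regions once and taking denominators of 1 as 0 were alternatives added after seeing the data. No paired analysis was possible because each genotype has 1 IP library. Depth limits calls of lower regions, since a region with 10 wild-type reads needed 69 knockout-labelled reads.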
